A study of Homo sapiens with 6 samples.

Results

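Cells take up amino acids through carriers in the plasma membrane and make asparagine themselves with asparagine synthetase, and 10 genes of this kind were followed here in HK-2 cells treated with the PKM2 activator TEPP-46. They are *ASNS* (asparagine synthetase) and the carrier genes *SLC7A11*, *SLC7A5*, *SLC3A2*, *SLC7A1*, *SLC1A5*, *SLC1A4*, *SLC38A1*, *SLC38A2*, and *SLC6A9*. Their rows were found by Ensembl identifier, and all 10 were present among the 29483 genes of the table.

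RNA of HK-2 cells, a human line derived from the epithelium of the renal proximal tubule and immortalized with papillomavirus genes, was sequenced in 6 libraries. Both groups were kept in 25 mM high D-glucose (HG) medium for 7 days and then for 1 more day in HG, during which the case group (3 libraries) received 10 μM TEPP-46 and the control group (3 libraries) did not. No library from low glucose was analysed here, and the labels do not say whether the control cells received the solvent of the compound. The values were FPKM, reads scaled to the exon length of each gene and to the library's total, so that levels can be compared between genes per length. Whole reads were recovered from the steps between low FPKM values and summed to 18630451, 17919402, and 17374895 in control replicates 1, 2, and 3, and to 16708913, 16044565, and 15361361 in case replicates 1, 2, and 3. By the methods of the study the replicates were independent and were treated apart from each other.

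For the comparison, FPKM values were scaled by one factor per library, 0.1 was added, and limma was run on log2 values of the 13599 genes whose mean FPKM reached 0.5. DE genes are those with an adjusted p of at most 0.05 over all tested genes, and every log2 fold change is the case group minus the control group. Of the tested genes, 998 (7.34%) were upregulated and 794 (5.84%) downregulated. The case libraries were less alike than the control libraries. The median SD between replicates was 0.19 in the case group and 0.09 in the control group on the log2 scale. Case replicate 2 stood closer to the control group than the other two case libraries for short and for long genes, as described below with the exon lengths.

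The markers of the labelled cell type were compared with the label. Of 8 markers of proximal tubule epithelium, 7 were in the table and none reached a mean FPKM of 0.5. Their summed FPKM was between 0.238 and 0.493 per library, with *GGT1* the most abundant. *LRP2*, which encodes the endocytic receptor megalin, had at most 2 reads in any library. The 7 markers of kidney epithelium in general had a high summed FPKM, with the keratin gene *KRT8* the most abundant. Not all 7 reached a mean FPKM of 0.5. The sum was lower in every case library (520, 423, and 486) than in every control library (569.6, 557, and 546). Of these 7 markers, 5 were tested, with a median log2 fold change of -0.17 and 2 of them above 0. By limma 1 of the 5 was downregulated, beside 5.84% of all tested genes, and 4 were not DE genes. The downregulated marker was *CDH1*, which encodes E-cadherin, and it fell by 0.64 on the log2 scale (adjusted p = 0.0156 by limma). This call was lost when any control replicate or case replicate 3 was left out (0.0583 to 0.0866). Of 3 podocyte markers 2 were in the table, with a summed FPKM of 2.29 to 2.82 in the control libraries and 1.49 to 1.83 in the case libraries, and *PODXL*, the most abundant, fell by 0.63 on the log2 scale (adjusted p = 0.0309 by limma), a call lost in the same cases (0.0784 to 0.138). The part of these markers in the changes described below was not tested. The 2 markers of distal and collecting tubule found in the table summed to at most 0.0202. The summed FPKM of 3 endothelial markers was at most 0.065, that of *CD68*, the leukocyte marker found in the table, was at most 0.0297, and that of 3 fibroblast markers was at most 0.45. The keratin gene *KRT8* was thus high, and the transport markers that define the proximal tubule in the kidney were near 0.

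Amino acid carriers of the SLC7 family that exchange large neutral amino acids or cystine are light chains, which reach the membrane bound to a common heavy chain, 4F2hc, the product of *SLC3A2*. When amino acids run short or the endoplasmic reticulum is stressed, phosphorylation of the initiation factor eIF2 favours translation of the transcription factor ATF4, which binds C/EBP-ATF response elements together with C/EBP proteins and raises transcription of carriers, of *ASNS*, and of enzymes of amino acid synthesis. In the proximal tubule, amino acid carriers are known for reclaiming filtered amino acids.

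Because these genes are known as ATF4 targets, the start sites listed for them by RefSeq (GRCh38.p14, 250 bases before to 50 after each start) were searched on both strands for TGATGNAA, the core of the C/EBP-ATF response element. The table of start sites held 9 of the 10 genes, all but *SLC7A11*, with 16 windows. The letters were found in 6 of these windows, each of a different gene, and in 3.62% of all 35116 windows. The window of *ASNS* holds the match from -68 to -61 relative to an internal start, at chr7:97872458-97872487, within the annotated gene. The sequences below are shown because they carry this match in genes that rose and in genes that did not, with the matching letters in capitals, each 5′ to 3′ on the strand given.
ASNS, minus strand: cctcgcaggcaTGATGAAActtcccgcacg
SLC1A4, minus strand: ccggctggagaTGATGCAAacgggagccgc
SLC1A5, minus strand: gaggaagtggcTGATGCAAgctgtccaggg
SLC3A2, minus strand: ggagcTGATGTAAggagtcctgcacattac
SLC38A1, minus strand: tcagacccgaaTGATGAAAagggatcagct
SLC7A1, minus strand: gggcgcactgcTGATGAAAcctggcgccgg
The other 5 lie at chr2:64989381-64989410 (*SLC1A4*, match from -7 to 1 of an internal start), chr19:46784893-46784922 (*SLC1A5*, -97 to -90 from an internal start), chr11:62881719-62881748 (*SLC3A2*, 38 to 45 from an internal start, within the transcribed part), chr12:46266502-46266531 (*SLC38A1*, -4 to 4 of an internal start), and chr13:29595663-29595692 (*SLC7A1*, 8 to 15, within the transcribed part). A match is a description of the letters and not a binding site, and the search was made with the results of these genes known. The letters TGACNNNGC, the core of the antioxidant response element that NRF2 binds, were found in 4 of the 16 windows and in 13.3% of all windows. These 4 windows were of *SLC3A2*, *SLC7A5*, *SLC7A1*, and *SLC1A5*.

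TEPP-46 treatment was followed by higher expression of 5 of the 10 genes, and no gene of the 10 was lower by limma, by voom, or at an unadjusted p under 0.05 (0 genes each). Upregulated genes made up 7.34% of all tested genes and downregulated genes 5.84% (11.0% by voom). At an unadjusted p under 0.05, 2207 of the 13599 tested genes were lower. *ASNS*, *SLC3A2*, *SLC1A4*, *SLC1A5*, and *SLC7A5* were upregulated DE genes by 1.40-fold to 1.78-fold. *SLC6A9*, *SLC7A11*, *SLC7A1*, *SLC38A2*, and *SLC38A1* were not DE genes. In the 5 genes that rose, every case library lay above every control library, against 39.9% of all tested genes whose groups did not overlap (19.5% higher and 20.4% lower in the case group). The median log2 fold change of the 10 genes was 0.35, beside -0.0017 over all tested genes, and 7 of the 10 were above 0, beside 49.8% of all tested genes. The genes were chosen with earlier results of these data known.

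**Figure D1:**
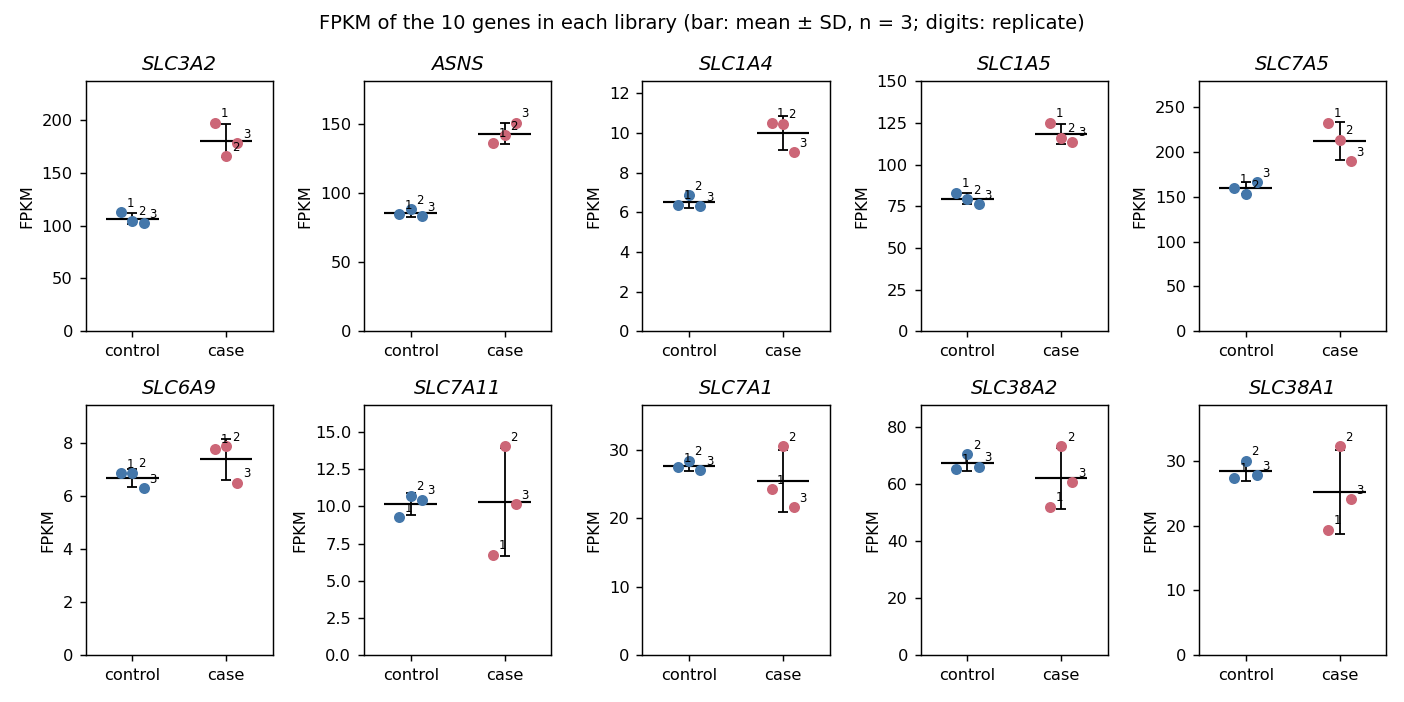
FPKM as deposited (vertical axes, each from 0) of the 10 genes in the 3 control and 3 case libraries, with digits for the replicate and bars for the mean and SD (n = 3). In the upper row every case library lies above every control library, whereas in *SLC7A11*, *SLC7A1*, *SLC38A2*, and *SLC38A1* case replicate 2 lies above all others.

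*ASNS* (ENSG00000070669) encodes the enzyme that converts aspartate and glutamine to asparagine and glutamate, and is found on chromosome 7 (GRCh38), from 97851677 to 97872542 on the minus strand. Its FPKM was 84.8, 88.5, and 83.4 in control replicates 1, 2, and 3, and 136, 142, and 151 in case replicates 1, 2, and 3, on 6458 to 10329 reads per library. The groups were far apart and the case libraries were close to each other. The group means were 85.6 ± 2.64 (SD, n = 3) and 143 ± 7.35 (SD, n = 3). *ASNS* rose by 0.82 on the log2 scale (standard error 0.07, 95% interval 0.65 to 0.98, adjusted p = 0.00209 by limma). Its p ranked 22 among all tested genes, ahead of the other 9 genes described here, and it was a DE gene without each replicate in turn. A noncoding gene on the same strand, ENSG00000284707, shares 2415 exon bases with *ASNS* in the GENCODE 44 annotation. It has no row among the genes of the table, so reads of that stretch cannot be told apart without knowing how they were counted.

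*SLC3A2* (ENSG00000168003) encodes the heavy chain 4F2hc and lies on chromosome 11 from 62856004 to 62888880 on the plus strand. Its FPKM was 113, 105, and 103 in control libraries 1, 2, and 3, against 198, 166, and 178 in case libraries 1, 2, and 3. The lowest case library, replicate 2, was still well above the highest control library. The log2 fold change was 0.83 (standard error 0.10, 95% interval 0.60 to 1.07, adjusted p = 0.00748 by limma), the largest of the 10 genes, with an interval that overlapped that of *ASNS*. The call was lost without control replicate 2 or 3 (adjusted p of 0.0531 and 0.0504 by limma).

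*SLC7A5* (ENSG00000103257) encodes LAT1, the light chain that exchanges large neutral amino acids such as leucine, and lies on chromosome 16 from 87830023 to 87869507 on the minus strand. It was the most abundant of the 10 genes per length. Its FPKM was 159, 152, and 166 in control libraries 1, 2, and 3, against 232, 214, and 189.6 in case libraries 1, 2, and 3, on up to 18431 reads. Its case libraries were above the control libraries without overlap, but by the least in replicate 3. *SLC7A5* rose by 0.48 on the log2 scale (standard error 0.10, 95% interval 0.25 to 0.72, adjusted p = 0.0244 by limma), and the call was lost when any control replicate or case replicate 3 was left out (adjusted p of 0.0537 to 0.115 by limma). The change of *SLC7A5* was 0.26 with quantile normalization (adjusted p = 0.0693 by limma) and 0.28 as TPM (0.0479), and its call was also lost without the filter on low values (0.0752) and without the intensity trend (0.0578).

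*SLC1A5* (ENSG00000105281) encodes ASCT2, a sodium-dependent exchanger of glutamine and other neutral amino acids, and lies on chromosome 19 from 46774883 to 46788594 on the minus strand. Its FPKM was 83.3, 79.4, and 76.3 in control libraries 1, 2, and 3, against 125, 116, and 114 in case libraries 1, 2, and 3. The case libraries lay within a narrow range above the control libraries. *SLC1A5* rose by 0.65 on the log2 scale (standard error 0.09, 95% interval 0.45 to 0.84, adjusted p = 0.00917 by limma), with the call lost without control replicate 2 or 3 (adjusted p of 0.0611 and 0.0594 by limma). *SLC1A4* (ENSG00000115902) encodes the related exchanger ASCT1, which carries alanine, serine, and cysteine, and lies on chromosome 2 from 64988477 to 65023865 on the plus strand. It was expressed at a far lower level, with an FPKM of 6.39, 6.87, and 6.32 in control libraries 1, 2, and 3, against 10.5, 10.5, and 9.02 in case libraries 1, 2, and 3, on 762 to 1220 reads. Again the groups did not overlap. *SLC1A4* rose by 0.68 on the log2 scale (standard error 0.10, 95% interval 0.46 to 0.91, adjusted p = 0.0116 by limma), with the call lost when any control replicate was left out (adjusted p of 0.06 to 0.0613 by limma).

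In the other 5 genes the case libraries overlapped the control libraries. *SLC7A11* (ENSG00000151012) encodes xCT, the light chain that brings in cystine in exchange for glutamate and feeds glutathione synthesis, and lies on chromosome 4 from 138164097 to 138242349 on the minus strand. Its FPKM was 9.3, 10.7, and 10.5 in control libraries 1, 2, and 3, against 6.75, 14.05, and 10.2 in case libraries 1, 2, and 3. Case replicate 1 was the lowest and case replicate 2 the highest of the 6 libraries, so that the case group spanned the whole control group. Its difference between groups was 0.04 on the log2 scale with a 95% interval from -0.45 to 0.53 (adjusted p = 0.917 by limma), which leaves room for an increase as large as that of *SLC7A5*.

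*SLC38A2* (ENSG00000134294) and *SLC38A1* (ENSG00000111371) encode SNAT2 and SNAT1, sodium-coupled carriers of glutamine and alanine, and are neighbours on chromosome 12, from 46358188 to 46372773 and from 46183063 to 46270017, both on the minus strand. The FPKM of *SLC38A2* was 65.4, 70.5, and 66.2 in control libraries 1, 2, and 3, against 52.2, 73.3, and 60.7 in case libraries 1, 2, and 3. That of *SLC38A1* was 27.4, 30.05, and 27.8 in control libraries 1, 2, and 3, against 19.4, 32.2, and 24.04 in case libraries 1, 2, and 3. In both genes, case replicate 2 was above every control library and case replicates 1 and 3 were below every control library. The 95% interval of the log2 fold change was -0.30 to 0.19 for *SLC38A2* and -0.47 to 0.22 for *SLC38A1*, so that increases as large as those of the 5 DE genes lay outside both intervals.

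*SLC7A1* (ENSG00000139514) encodes CAT1, the uniporter of arginine and lysine, and lies on chromosome 13 from 29509414 to 29595688 on the minus strand. Its FPKM was 27.5, 28.4, and 27.04 in control libraries 1, 2, and 3, against 24.3, 30.6, and 21.7 in case libraries 1, 2, and 3, with the case libraries on both sides of the control libraries. The log2 fold change of *SLC7A1* was -0.05 (95% interval -0.32 to 0.21, adjusted p = 0.779 by limma). *SLC6A9* (ENSG00000196517) encodes the glycine carrier GlyT1 and lies on chromosome 1 from 43991500 to 44031467 on the minus strand. Its FPKM was 6.88, 6.9, and 6.3 in control libraries 1, 2, and 3, against 7.81, 7.89, and 6.51 in case libraries 1, 2, and 3, on 516 to 673 reads, and case replicate 3 fell among the control libraries. For *SLC6A9* the log2 fold change was 0.22 (95% interval -0.03 to 0.46, adjusted p = 0.198 by limma). Exons of *CCDC24* on the other strand share 413 bases with *SLC6A9*, and the strand setting of the counting is not given in the sources used here.

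**Figure D2:**
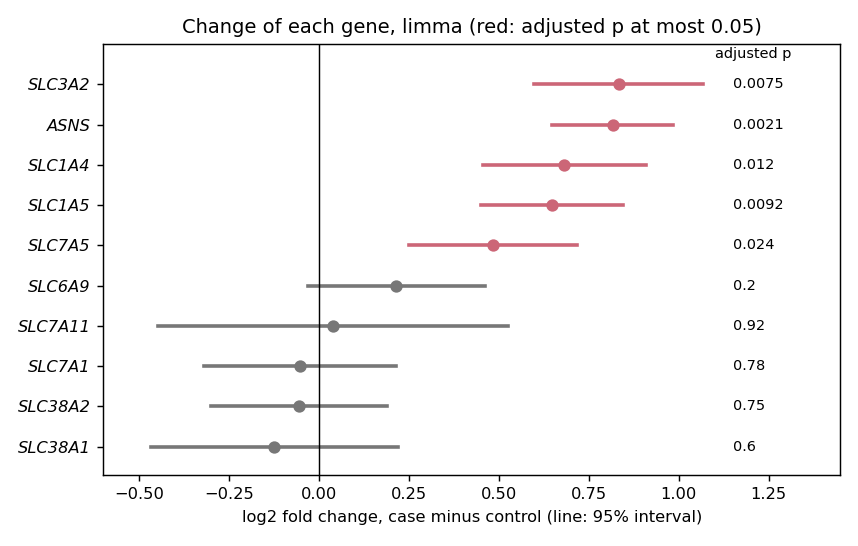
Log2 fold change, case minus control, of the 10 genes (points) with the 95% interval from limma (lines) and the adjusted p beside each. The 5 genes in red, from *SLC3A2* at 0.83 to *SLC7A5* at 0.48, have intervals above 0, and the 5 in grey have intervals that include 0.

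Ordered by mean FPKM, the control group ran from *SLC7A5* (159) over *SLC3A2* (107), *ASNS* (85.6), *SLC1A5* (79.7), *SLC38A2* (67.4), *SLC38A1* (28.4), *SLC7A1* (27.6), *SLC7A11* (10.2), and *SLC6A9* (6.69) to *SLC1A4* (6.52). The replicate ranges of neighbours in this order overlapped for *SLC38A1* with *SLC7A1* and for *SLC6A9* with *SLC1A4*. In the case group, *SLC7A5* (212) and *SLC3A2* (181) overlapped, and *SLC1A4* (10.002) stood above *SLC6A9* (7.4) without overlap. The 10 genes together held 0.305% to 0.31% of the reads in the control libraries and 0.388% to 0.418% in the case libraries.

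Ratios of 2 genes within a library do not depend on the scaling between libraries. Between the groups, 6 were compared by an exact permutation test over samples (two-sided, smallest possible p 0.1, so that the design cannot pass 0.05). The ratios were not corrected for exon length or GC content, with which the case libraries varied, as described below. *SLC7A5* to its heavy chain gene *SLC3A2* was 1.41, 1.46, and 1.62 in control libraries 1, 2, and 3, against 1.18, 1.29, and 1.06 in case libraries 1, 2, and 3. It was lower in every case library than in every control library, with a difference of -0.35 on the log2 scale (exact permutation p = 0.1, adjusted over the 6 ratios 0.2). The ratio of *SLC7A11* to *SLC3A2* was 0.0825, 0.102, and 0.102 in control libraries 1, 2, and 3, against 0.0342, 0.0846, and 0.057 in case libraries 1, 2, and 3, where case replicate 2 lay among the control values (exact permutation p = 0.2, adjusted p = 0.3). The ratio of *SLC7A1* to *SLC7A5* was 0.163 to 0.187 in the control libraries and 0.105 to 0.143 in the case libraries (exact permutation p = 0.1, adjusted p = 0.2).

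By contrast, the ratios within the other related pairs overlapped between the groups. *SLC1A4* to *SLC1A5* was 0.0767 to 0.0864 in the control libraries and 0.0792 to 0.09 in the case libraries, a difference of 0.04 on the log2 scale (exact permutation p = 0.6, adjusted p = 0.6). *SLC38A2* to *SLC38A1* was 2.35 to 2.39 in the control libraries and 2.27 to 2.69 in the case libraries (exact permutation p = 0.4, adjusted p = 0.48).

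**Figure D3:**
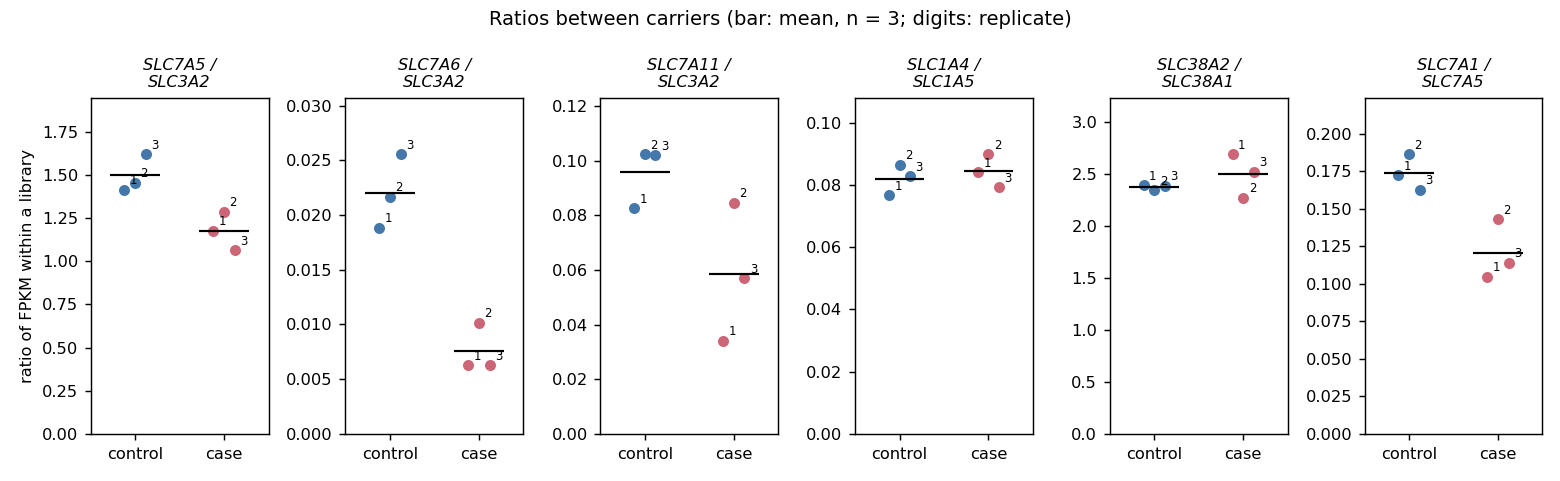
Ratio of the FPKM values of 2 genes within each library (vertical axes, each from 0) for the 6 pairs compared, with digits for the replicate and bars for the mean (n = 3). The ratios of *SLC7A5* and *SLC7A6* to *SLC3A2* and of *SLC7A1* to *SLC7A5* lie lower in every case library than in every control library, and those of *SLC1A4* to *SLC1A5* and *SLC38A2* to *SLC38A1* overlap.

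The changes of all tested genes varied with exon length, which also differed between the genes that rose and those that did not. Among the 2703 tested genes with exons under 2000 bases, the median difference from the control mean was 0.25, 0.05, and 0.22 on the log2 scale in case replicates 1, 2, and 3. Among the 2323 genes of 8000 bases or more it was -0.35, -0.09, and -0.25. Case replicate 2 therefore showed the smallest length dependence. Of the genes that rose, *SLC1A5* (3332 bases), *ASNS* (4455), *SLC7A5* (4745), and *SLC3A2* (5178) have exons under 6000 bases and *SLC1A4* has 6939. Of those that did not, *SLC38A2* (6602), *SLC7A1* (7692), *SLC7A11* (9645), and *SLC38A1* (10015) are longer than 6000 bases, and *SLC6A9* has 5159.

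The 10 genes were therefore set beside genes of their own length. In the band of 4000 to 6000 bases, which holds *ASNS*, *SLC7A5*, *SLC3A2*, and *SLC6A9*, 6.67% of 3028 genes were upregulated and the median log2 fold change was -0.01. In the band of 6000 to 8000 bases, with *SLC1A4*, *SLC7A1*, and *SLC38A2*, 3.78% of 2064 genes were upregulated and the median was -0.11. In the band of 2000 to 4000 bases, with *SLC1A5*, 11.8% of 3481 genes were upregulated. In the longest band, with *SLC7A11* and *SLC38A1*, 1.64% were upregulated, 14.5% were downregulated, and the median was -0.22. After a correction of each library for exon length, added once the data were known, the same 5 genes were DE genes (7.09% of all tested genes were then upregulated), with log2 fold changes of 0.88 for *SLC3A2*, 0.82 for *ASNS*, 0.80 for *SLC1A4*, 0.58 for *SLC1A5*, and 0.50 for *SLC7A5*. The log2 fold change of *SLC7A11* was then 0.25 (adjusted p = 0.343 by limma), and those of *SLC38A1* (0.10), *SLC7A1* (0.091), and *SLC38A2* (0.047) turned positive without passing the threshold.

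**Figure D4:**
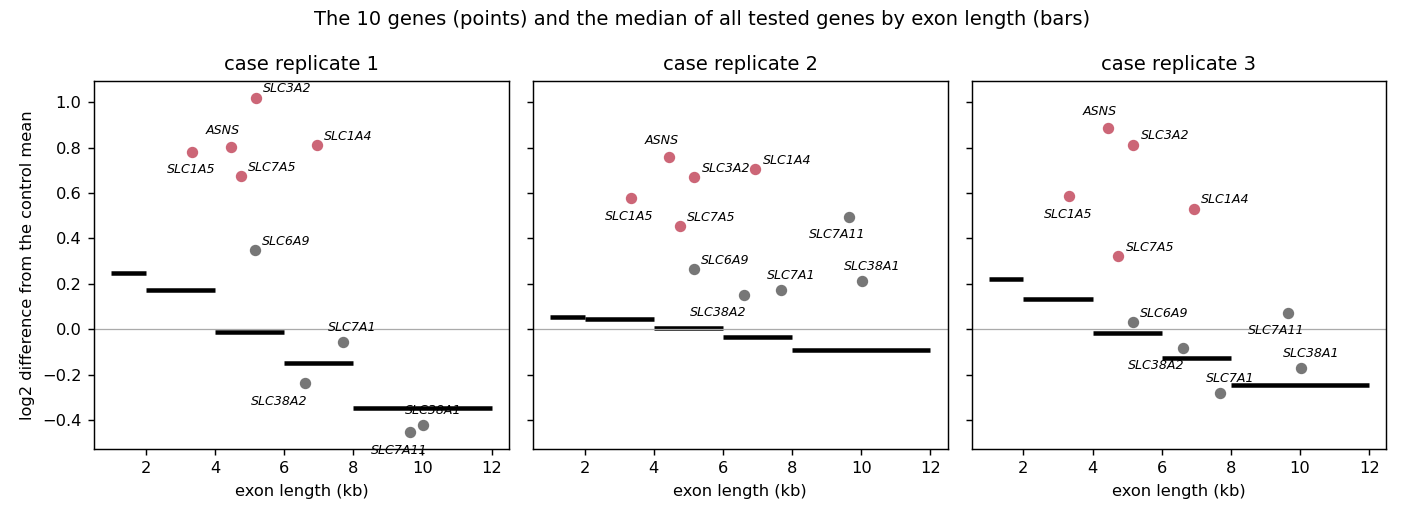
Difference from the control mean on the log2 scale (vertical axis) in each case library against exon length in kb (horizontal axis) for the 10 genes (points, red for DE genes) and for the median of all tested genes in 5 length bands (black bars, the shortest band drawn from 1 kb and the longest to the end of the axis). The bars run from 0.25 down to -0.35 in case replicate 1 and from 0.05 to -0.09 in case replicate 2, and the red points lie above the bar of their length in all 3 libraries.

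GC content also separated the case libraries. Among the 2317 genes under 40% GC in their longest transcript, which include *SLC7A11* (35.4%) and *SLC38A2* (37.4%), the median difference from the control mean was -0.28 in case replicate 1, 0.04 in case replicate 2, and -0.0015 in case replicate 3. Among the 1928 genes of 60% or more, which include *SLC7A5* (61.2%) and *SLC1A5* (61.3%), it was 0.17, -0.14, and -0.09. With each library corrected for GC content, also added once the data were known, the same 5 genes were DE genes, beside 14.3% of all tested genes upregulated.

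The profiles over the 6 libraries were compared with those of the 11663 genes whose mean FPKM reached 1, by the root mean square difference of log2 values centred on each gene. Closest to *ASNS* were *DUSP5* (0.051), *PLK3* (0.052), *ATF3* (0.053), *GLA* (0.065), and *SNHG17* (0.067). *ATF3* encodes a stress-induced transcription factor of the ATF family. Closest to *SLC7A11* were *ZNF721* (0.045), *ZNF614* (0.048), *SRGAP2C* (0.056), *BACH1* (0.074), and *FNIP1* (0.078), which like *SLC7A11* were lowest in case replicate 1 and highest in case replicate 2. *BACH1* encodes a repressor that competes with NRF2 at antioxidant response elements. These are likenesses over 6 libraries and no test was made.

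Of the other amino acid carriers found in the table, most were barely expressed. Of 36 listed, 26 were in the table and 11 were tested. None was upregulated by limma, by voom, or at an unadjusted p under 0.05 (0 genes each). Of all tested genes, 7.34% were upregulated by limma, 9.43% were higher by voom, and 2288 of 13599 were higher at the unadjusted p. By limma 1 of the 11, *SLC7A6*, was downregulated, beside 5.84% of all tested genes. By voom 3 were lower (11.0% of all tested genes), and 3 at an unadjusted p under 0.05 (2207 of the 13599 tested genes). The median log2 fold change of the 11 was -0.10. *SLC7A6* (ENSG00000103064) encodes y+LAT2, another light chain of 4F2hc. Its FPKM was 2.12, 2.27, and 2.62 in control libraries 1, 2, and 3, against 1.24, 1.68, and 1.12 in case libraries 1, 2, and 3, on 131 to 346 reads, so that every case library was below every control library. *SLC7A6* fell by 0.69 on the log2 scale (standard error 0.17, adjusted p = 0.0357 by limma), and its ratio to *SLC3A2* differed by -1.57 on the log2 scale (exact permutation p = 0.1, adjusted p = 0.2). Its exons measure 7588 bases, and it lost its call after the correction for exon length, with a change of -0.55 (adjusted p = 0.0537 by limma), and when any library but case replicate 2 was left out (0.0546 to 0.132). The remaining light chains of 4F2hc, *SLC7A7*, *SLC7A8*, and *SLC7A10*, had at most 13 reads in any library, and the heavy chain *SLC3A1* had at most 11.

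Of the other genes of the ATF4 pathway, 17 rose with the 5 genes. Of 32 listed, 31 were tested, 17 (against 7.34% of all tested genes) were upregulated DE genes, and 14 were not DE genes. None was downregulated by limma or voom (5.84% and 11.0% of all tested genes), and 1 was lower at an unadjusted p under 0.05 (2207 of 13599). DE genes of this list numbered 8, 6, and 7 without control replicates 1, 2, and 3, and 9 without case replicate 3. Of all tested genes, 0.771%, 0.507%, 0.64%, and 1.41% were then DE genes. Without the filter on low values, 11 of the list were DE genes (1.88% of all tested genes). With all libraries and the filter, the median log2 fold change was 0.43. The largest changes were those of *DDIT3* (1.62), *PPP1R15A* (1.48), *TRIB3* (1.03), and *GDF15* (0.97). *GDF15*, a secreted stress cytokine, rose from an FPKM of 1.25 ± 0.128 (SD, n = 3) to 2.41 ± 0.26 (SD, n = 3) on 42 to 94 reads. *ATF4* itself, named here after its value was seen, rose by 0.35 on the log2 scale (adjusted p = 0.0296 by limma). *DDIT3*, *PPP1R15A*, and *TRIB3* kept their calls whichever replicate was left out, whereas *GDF15* lost its call when any control replicate was left out (adjusted p of 0.0537 to 0.0713 by limma), and so did *ATF4*, also without case replicate 3 (0.101 to 0.148). The change of *ATF4* was 0.15 as TPM (adjusted p = 0.0788 by limma) and 0.11 with quantile normalization (0.139), and its call was also lost without the filter on low values (0.113) and without the intensity trend (0.0632).

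Among 20 enzymes that use glutamine, glutamate, aspartate, or asparagine, 16 were tested, 3 were upregulated and 1 was downregulated, beside 7.34% and 5.84% of all tested genes, and the median log2 fold change was -0.05. *GOT1*, the cytosolic aspartate aminotransferase that makes the substrate of *ASNS*, had an FPKM of 78.6, 77.2, and 75.9 in control libraries 1, 2, and 3, against 119.5, 105, and 117 in case libraries 1, 2, and 3, and rose by 0.63 on the log2 scale (adjusted p = 0.0102 by limma). *NIT2*, an omega-amidase, rose by 0.42 on the log2 scale, and was not a DE gene as TPM (0.22, adjusted p = 0.188 by limma) or without further scaling (0.34, 0.0744). *ASL*, the argininosuccinate lyase of the urea cycle, fell by 0.40 on the log2 scale. *GOT1*, *NIT2*, and *ASL* lost their calls when any control replicate or case replicate 3 was left out, with an adjusted p by limma of 0.0509 to 0.0642 for *GOT1* and up to 0.136 for *NIT2*.

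The list of genes that relay amino acid supply to the kinase complex mTORC1 held genes called in both directions. Of 33 listed, 29 were tested, 4 were upregulated (7.34% of all tested genes were) and 3 downregulated (5.84% of all tested genes were), and the median log2 fold change was 0.03. *RRAGC*, a Rag GTPase, rose by 0.67 on the log2 scale, and the other 3 that rose were the Ragulator subunit genes *LAMTOR1*, *LAMTOR2*, and *LAMTOR4*, named here after their values were seen. *CASTOR2* (-0.91), a paralog of the arginine sensor, *MTOR* (-0.56), the kinase, and *RPTOR* (-0.48), its scaffold raptor, fell. These 3 have exons of 8178, 12119, and 9389 bases, the 4 that rose have 1438 to 5166, and after the correction for exon length none of the 3 was a DE gene (adjusted p of 0.0719, 0.0951, and 0.161 by limma for *CASTOR2*, *MTOR*, and *RPTOR*). Their changes were then -0.74 for *CASTOR2*, -0.28 for *MTOR*, and -0.28 for *RPTOR*. Of the 4 that rose, *LAMTOR1* (0.0523) and *LAMTOR2* (0.211) also lost their calls under that correction. *LAMTOR1* was then at 0.28 on the log2 scale, against 0.38 before it, and *LAMTOR2* at 0.16, against 0.31. As TPM all 4 lost their calls, with changes of 0.48 for *RRAGC* (adjusted p = 0.0762 by limma), 0.18 for *LAMTOR1* (0.113), 0.11 for *LAMTOR2* (0.284), and 0.23 for *LAMTOR4* (0.0609). With quantile normalization *LAMTOR1* (0.25, adjusted p = 0.0605 by limma) and *LAMTOR2* (0.16, 0.15) lost theirs. The calls of all 7 were lost when any control replicate or case replicate 3 was left out, and that of *RRAGC* also without case replicate 1 (adjusted p of 0.0656 for *MTOR* to 0.165 for *LAMTOR2* by limma).

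Cystine brought in by xCT feeds glutathione synthesis, and NRF2 is a known regulator of *SLC7A11*. All 18 listed genes of glutathione synthesis and NRF2 targets were tested, with a median log2 fold change of 0.23. By limma 4 were upregulated and none was downregulated, beside 7.34% and 5.84% of all tested genes. By voom 6 were higher and 1 was lower, beside 9.43% and 11.0% of all tested genes. At an unadjusted p under 0.05, 9 were higher and 1 was lower, beside 2288 and 2207 of the 13599 tested genes. The 4 upregulated genes were *OSGIN1* (1.38), *NFE2L2* (0.61), which encodes NRF2, the quinone reductase gene *NQO1* (0.43), and the glutathione reductase gene *GSR* (0.32). *OSGIN1* was a DE gene without each replicate in turn, and the other 3 were not when any control replicate or case replicate 3 was left out (adjusted p of 0.0674 for *NFE2L2* to 0.143 for *GSR* by limma). With quantile normalization the changes of *NQO1* (0.099) and *GSR* (0.13) lost their calls (adjusted p of 0.234 and 0.1996 by limma), and as TPM those of *NFE2L2* (0.41) and *GSR* (0.12) did (0.059 and 0.203). Both genes of the enzyme that begins glutathione synthesis, named here after their values were seen, were not DE genes. Their log2 fold changes were 0.33 for *GCLC* (adjusted p = 0.0527 by limma) and 0.25 for *GCLM* (adjusted p = 0.0941 by limma), beside 0.04 for *SLC7A11* (adjusted p = 0.917 by limma). All lists were chosen with earlier results of these data known, and no test was made of a list as a whole.

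**Figure D5:**
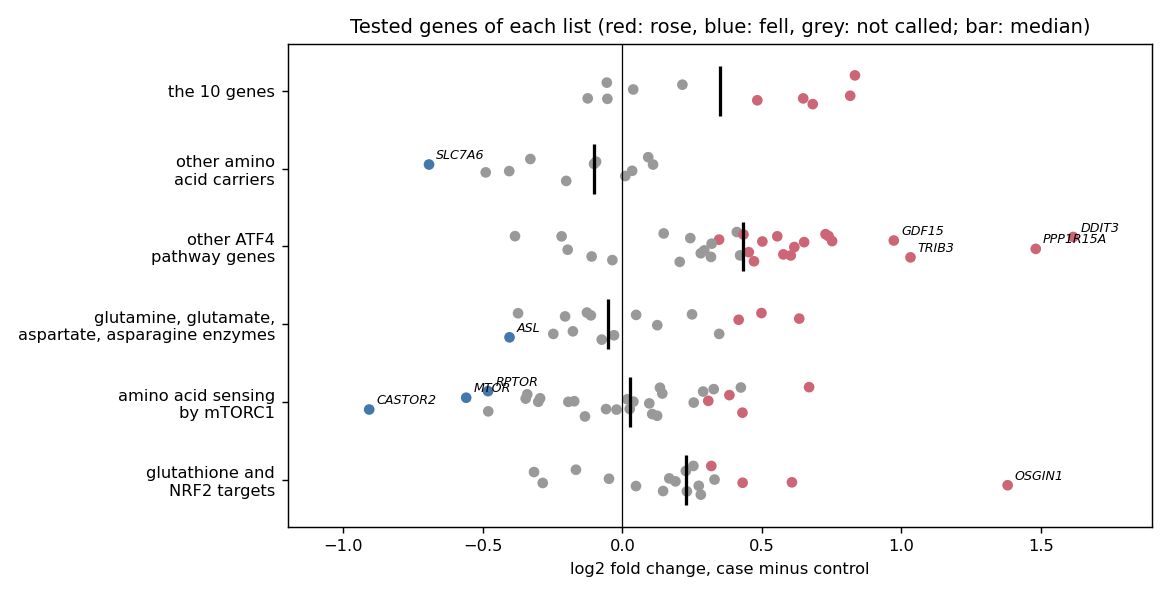
Log2 fold change, case minus control (horizontal axis), of the tested genes of each list, with one point per gene (red for upregulated, blue for downregulated, grey for neither, spread vertically for legibility) and a bar at the median. The medians are 0.35 for the 10 genes and 0.43 for the other ATF4 pathway genes, and -0.10 for the other amino acid carriers.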

How the data were processed

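HK-2 libraries of 3 control and 3 case replicates were analysed. The authors filtered the reads, aligned them with HISAT2 2.1.0 to GRCh38.p13, counted them per gene with HTSeq 0.6.0 and deposited FPKM values; the annotation version and strand setting are not given in the sources used here. The commonest ratio between low FPKM values of 2 libraries gave their relative depth. Whole reads were then recovered (within 0.02 reads) for 27921 of the 27922 genes above 0. Lengths were checked against GENCODE 44, and for 5195 genes the implied length was within 0.1% of the annotated exon length. The reads of 2829 genes were set by the annotated length. Intervals cover the spread between libraries only.

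Each library was scaled by a median-of-ratios factor (0.944 to 1.04) set on the tested genes, and groups were compared on log2(FPKM + 0.1) by limma 3.58.1 in R 4.3.3 with an intensity trend, with Benjamini-Hochberg adjustment over 13599 genes. Fold changes on this scale understate those of low genes. The code was tested on simulated data. Genes were named by a rule: the 10 genes, up to 4 DE genes per list with the largest changes, and the 5 nearest profiles to *ASNS* and *SLC7A11*; 1 gene that the rule names is not reported here. *ATF4*, *GCLC*, *GCLM*, *LAMTOR1*, *LAMTOR2*, *LAMTOR4*, and the marker genes *CDH1* and *PODXL* were named after their values were seen. The 10 genes, lists and tests were chosen with earlier results of these data known. Symbols were matched for 29063 identifiers.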

Additional observations from a re-analysis of the deposited data

How the results depend on the processing

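*ASNS*, *SLC3A2*, *SLC1A5*, and *SLC1A4* were DE genes in 14 of 14 other settings and *SLC7A5* in 11. *SLC7A5* lost its call without a filter on low values (adjusted p = 0.0752 by limma), with quantile normalization (0.0693) and without the intensity trend (0.0578). The other 5 genes were DE genes in none. Where a result moved, the cause was not tested. Without the filter, 347 genes were up and 177 down, and DE genes numbered 0 among the other carriers, 11 in the ATF4 list, 1 among the enzymes, 0 in the mTORC1 list, and 2 in the NRF2 list. Without further scaling, 662 genes were up, 1124 were down, 2 other carriers were DE genes, and *SLC7A11* was at -0.037. *SLC6A9* was then at 0.14, *SLC7A1* at -0.13, *SLC38A1* at -0.20, and *SLC38A2* at -0.13. As TPM, 383 genes were up and 2387 down, 4 other carriers were DE genes, and *SLC7A11* was at -0.16, with the median of all genes at -0.19. In TPM *SLC6A9* was at 0.018, *SLC7A1* at -0.25, *SLC38A1* at -0.32, and *SLC38A2* at -0.26. With quantile normalization *SLC7A1* was at -0.14, *SLC38A1* at -0.20, and *SLC38A2* at -0.21. Without the trend, 436 were up and 416 down, with 0 carriers, 1 enzyme, 2 mTORC1 genes, and 2 NRF2 genes. Of the named genes of the lists and markers, *SLC7A6*, *ATF4*, *NIT2*, *ASL*, *RRAGC*, *RPTOR*, *LAMTOR1*, *LAMTOR2*, *LAMTOR4*, *NQO1*, and *GSR* lost their calls without the filter and without the trend, and *CASTOR2*, *MTOR*, and *PODXL* without the filter. *RRAGC* (0.0546) and *LAMTOR2* (0.0584) also lost theirs without further scaling. With a pseudocount of 1, *CASTOR2* was at -0.44 and *RRAGC* at 0.43, both still DE genes. By voom on the recovered reads, 1283 were up and 1493 down, with 3 carriers and 7 NRF2 genes.

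Settings added after seeing the data were corrections for exon length and GC content. With the length correction, 964 genes were up and 564 down (11.2% of all tested genes in either direction). DE genes then numbered 0 among the carriers and 4 in the mTORC1 list, and *SLC7A1* (0.091), *SLC38A1* (0.10), and *SLC38A2* (0.047) changed sign. With the GC correction, 1939 genes were up and 1365 down, with 3 carriers, 8 enzymes, and 10 NRF2 genes, and *SLC38A2* was at 0.0397.

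Over all tested genes, same-numbered replicates did not deviate together (r of 0.06, 0.10, and -0.05), and not every library correlated best with its own number. Such correlations cannot decide whether the libraries were paired, because they are taken over all tested genes and single genes may differ. With the replicate number as a block, 848 genes were up and 762 down, and 4 mTORC1 genes were DE genes. The block ended the calls of *SLC7A6* (adjusted p = 0.0508 by limma), *NIT2* (0.0512), *LAMTOR2* (0.052), *GSR* (0.0572), *CASTOR2* (0.0593), and *RRAGC* (0.0599), and of no other gene named in the lists. With the block and the length correction, 591 were up and 352 down, with 0 carriers and 0 mTORC1 genes, and *SLC7A1* (0.091), *SLC38A1* (0.10), and *SLC38A2* (0.047) changed sign. With the block and the GC correction, 1691 were up and 1142 down, with 3 carriers, 7 enzymes, and 8 NRF2 genes, and *SLC38A2* was at 0.0397. The ratios kept their values under the block, with exact permutation p of 0.25 to 0.75.

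Leaving out each replicate in turn gave 55 to 1813 genes up and 14 to 1682 down (55 and 14 without control replicate 2, 1813 and 1682 without case replicate 2), 1 to 5 of the 10 genes up (3, 1, and 1 without control replicates 1, 2, and 3), 0 to 3 carriers, 6 to 17 ATF4 genes, 0 to 8 enzymes, 0 to 10 mTORC1 genes, and 1 to 8 NRF2 genes. The log2 fold change ranged from -0.19 to 0.29 for *SLC7A11*, -0.29 to 0.027 for *SLC38A1*, -0.16 to 0.039 for *SLC38A2*, and -0.17 to 0.062 for *SLC7A1*, and the log2 ratio of *SLC1A4* to *SLC1A5* differed by -0.0052 to 0.0867. Genes under a mean FPKM of 0.5, such as *SLC7A10* with at most 1 read, were not tested.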
